A study of Mus musculus with 6 samples.

Results

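The CDK inhibitor genes Cdkn1a, Cdkn1b, Cdkn2c and Cdkn2d and the antiproliferative genes Btg1 and Btg2 were followed across 3 populations of the basophil lineage sorted from mouse bone marrow. They were chosen by name, with earlier results of these data known, as 6 genes matched by Entrez Gene ID among the 24532 gene IDs of the tables. All 6 were among the 11337 genes that passed the filter on low values (a TPM, the length-scaled unit of transcript level, of 1 or above in no fewer than 2 of the 6 libraries).

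Cyclin-dependent kinases (CDKs) drive a cell through its division cycle, and CDK inhibitor proteins bind and restrain them. The CIP/KIP proteins p21 (Cdkn1a) and p27 (Cdkn1b) act on several cyclin and CDK pairs, whereas the INK4 proteins p18 (Cdkn2c) and p19 (Cdkn2d) bind CDK4 and CDK6. BTG1 and BTG2 are small proteins that recruit the CCR4-NOT deadenylase to messenger RNAs and restrain proliferation, and both are abundant in resting lymphocytes. Blood precursors divide and then leave the cycle as they mature, and p27 and p18 are known to take part in that arrest in several blood lineages.

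The study sorted C57BL/6J bone marrow into 3 populations and made 2 libraries of each, called biological duplicates, by RNA sequencing with a capture kit. BaP, labelled as basophil precursors, carried CD34 and bound MAR1 but lacked lineage markers and c-Kit. MAR1HI and MAR1INT lacked lineage markers, CD34 and c-Kit, carried CD200R3, and differed from each other in a high or an intermediate MAR1 signal. MAR1 is an antibody to the IgE receptor alpha chain, and no treatment, age or sex was named for any group.

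Aligned sequence per library, inferred from the highest ratio of coverage to FPKM among well-covered genes, was 4.75 to 5.28 gigabases. The MAR1INT tables listed 13670 and 13230 gene IDs at 0, against 7527 to 11530 in the other 4. All 10 basophil markers checked were above 0 in every group, and their median lay at 571 to 1065 TPM over the libraries. Between BaP and MAR1INT 4 of them rose and 4 fell, beside 11.1% and 20.4% of all tested genes. Their sum was 16891 to 21708 TPM in BaP, 17829 to 21559 in MAR1HI and 11036 to 13755 in MAR1INT. The 6 mast cell markers matched summed to 40.7 to 45.1 TPM in BaP, 4.08 to 4.89 in MAR1HI and 0.0446 to 0.449 in MAR1INT, mostly Kit. The summed level of 11 neutrophil markers reached 4682 and 9730 TPM in BaP, against 2841 to 3995 in the other groups. The sum of 8 eosinophil markers was 1146 to 2160 TPM in BaP and 81.2 to 228 elsewhere. Of 7 tested, 5 fell between BaP and MAR1INT and 1 rose. Siglecf stood at 20.9 to 21.9 TPM in BaP, 29.5 to 44.5 in MAR1HI and 79.5 to 109.8 in MAR1INT. The summed level of 8 dendritic cell markers, mostly class II antigen presentation genes, was 356.5 to 988 TPM in BaP, 60.2 to 73.3 in MAR1HI and 16.1 to 25.6 in MAR1INT. Of 9 tested monocyte and macrophage markers, 6 fell between BaP and MAR1INT and 1 rose, and the median of the 10 listed was 18.7 to 31.5 TPM in BaP, 3.62 to 3.72 in MAR1HI and 2.62 to 4.31 in MAR1INT. Their sum was higher in MAR1INT (684 to 751 TPM, against 329.8 to 409.9 elsewhere), and most of it there was Ccr2, at 618 and 565 TPM. Among 8 T and NK cell markers, Nkg7 made up nearly all of the sum (371 and 380 TPM in BaP, 194.2 and 194.1 in MAR1HI, 32.3 and 51.5 in MAR1INT), and the median of the list was at most 0.362 TPM in any library. The 8 B cell markers summed to 14.8 to 42.9 TPM, and the 8 erythroid markers to 1540 to 2300 TPM in BaP, 594 to 1189 in MAR1HI and 1262 to 2776 in MAR1INT, mostly globin genes. The part of these cells in the results was not tested. The 26 genes of DNA replication and mitosis summed to 3013 to 3188 TPM in BaP, 3201 to 4092 in MAR1HI and 482 to 638 in MAR1INT. In sorted bulk cells, fewer cells of a type and less RNA per cell cannot be told apart.

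By the order of the groups alone, the 6 genes fell into 2 sets of equal size. Cdkn1b, Btg1 and Btg2 stood lowest in BaP, higher in MAR1HI and highest in MAR1INT in every library, an order that 7.82% of tested genes showed. Cdkn2d, Cdkn2c and Cdkn1a were highest in both MAR1HI libraries, as 12.1% of tested genes were. No contrast of Cdkn2d was called over all 6 libraries. Its profile lay closer to the rising genes than to Cdkn2c and Cdkn1a, but was near none of them. Differences are given as log2 changes of TPM + 1 with their standard error, tested with limma over all 6 libraries and adjusted by the Benjamini-Hochberg method over all tested genes. The threshold for a call was an adjusted p of 0.05.

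**Figure D1:**
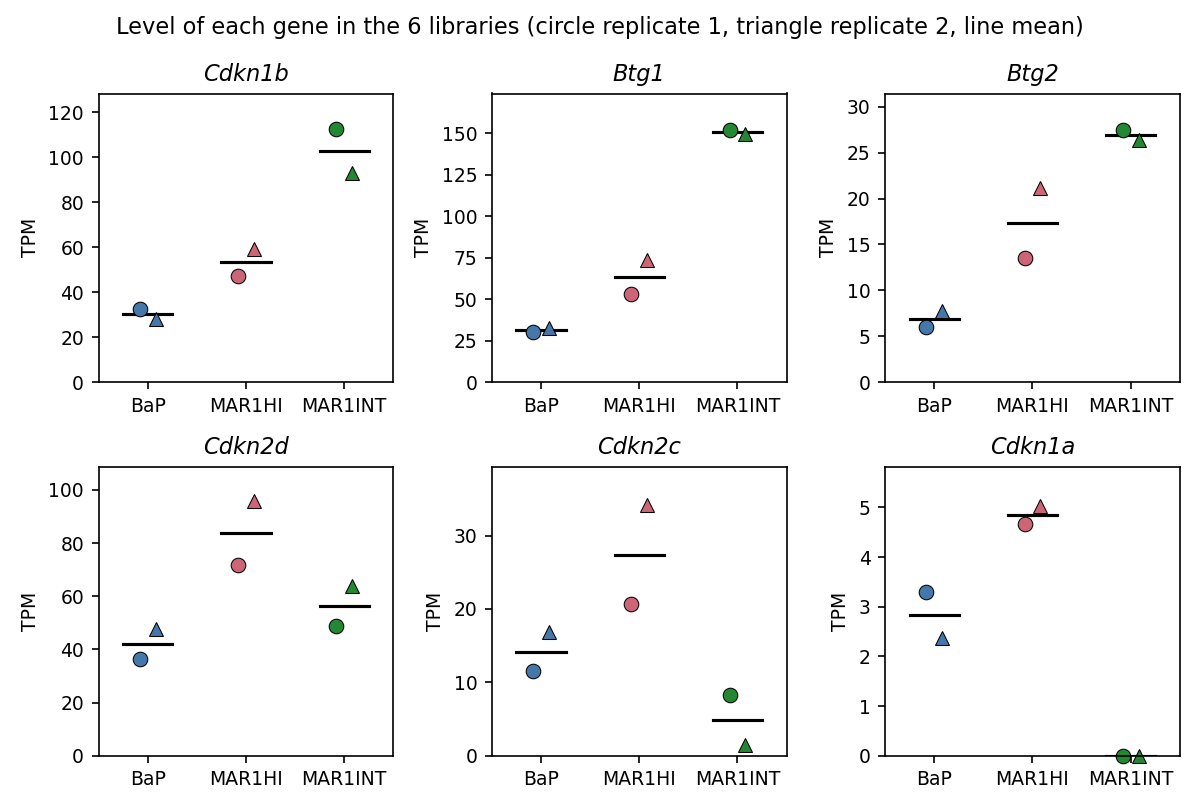
Level of each gene in TPM (linear axis from 0, separate scale per gene) in BaP, MAR1HI and MAR1INT, with circles for replicate 1, triangles for replicate 2 and a line at the mean of the 2 libraries. The upper row rises from BaP to MAR1INT without overlap between groups, and the lower row is highest in MAR1HI, with Cdkn1a listed at 0 in both MAR1INT libraries.

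The genes that rose are shown first by their upstream sequence, since they moved together. The 250 bases before the RefSeq start (GRCm38.p6, the sequence of mm10) are printed 5′ to 3′ on the gene's own strand, with matches to the searched motifs in capitals.

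Cdkn1b, chr6:134920151-134920400, plus strand: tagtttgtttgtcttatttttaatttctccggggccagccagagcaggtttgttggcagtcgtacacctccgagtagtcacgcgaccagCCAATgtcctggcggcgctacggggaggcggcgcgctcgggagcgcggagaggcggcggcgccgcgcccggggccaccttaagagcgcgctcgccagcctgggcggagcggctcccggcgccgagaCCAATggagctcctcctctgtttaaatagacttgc

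Btg1, chr10:96616751-96617000, plus strand: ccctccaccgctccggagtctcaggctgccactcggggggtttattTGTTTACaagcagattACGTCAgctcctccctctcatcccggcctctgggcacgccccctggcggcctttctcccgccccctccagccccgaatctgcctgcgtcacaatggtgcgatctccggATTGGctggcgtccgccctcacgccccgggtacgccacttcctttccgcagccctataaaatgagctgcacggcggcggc

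Btg2, chr1:134079156-134079405, minus strand: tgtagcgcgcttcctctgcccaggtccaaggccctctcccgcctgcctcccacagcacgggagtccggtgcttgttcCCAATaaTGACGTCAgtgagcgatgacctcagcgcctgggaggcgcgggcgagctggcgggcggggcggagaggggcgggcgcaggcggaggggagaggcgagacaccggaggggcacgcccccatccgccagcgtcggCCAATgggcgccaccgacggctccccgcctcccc

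The motifs were the cyclic AMP response element core TGACGT, the FOXO site GTAAACA, the E-box CACGTG, the CCAAT box, the E2F site TTCCCGC and the CHR element TTTGAA. A p53 site, made of adjacent half-sites with at most 1 mismatch, was searched as well. Each was sought on both strands. The CCAAT box lay in all 3 windows and in 33.8% of 32851 promoter windows of the same length. The TGACGT core lay in the windows of Btg1 and Btg2 and in 6.47% of all windows, and in Btg2 it stood on both strands in overlapping letters. A FOXO site lay in the Btg1 window and in 3.17% of all windows. These are matches of letters, not measured sites.

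Cdkn1b (gene 12576, mm10 chromosome 6, 134920401 to 134925525), the gene of p27, was found at 32.4 and 28.3 TPM in BaP, 47.1 and 59.3 in MAR1HI, then 113 and 92.9 in MAR1INT. No library of one group reached into the range of another. The mean was 30.4 ± 2.92 TPM in BaP, 53.2 ± 8.61 in MAR1HI and 103 ± 13.8 in MAR1INT (SD, n = 2 each). Cdkn1b rose 3.38-fold between BaP and MAR1INT (log2 change 1.72, SE 0.26, limma adjusted p = 0.00135). Between BaP and MAR1HI the 1.75-fold difference was not called (0.78, SE 0.26, limma adjusted p = 0.165). The step from MAR1HI to MAR1INT was 1.93-fold and called (0.94, SE 0.26, limma adjusted p = 0.039), but the call was lost without BaP replicate 1 (0.0828), BaP replicate 2 (0.0817), MAR1HI replicate 1 (0.122), MAR1HI replicate 2 (0.0904) or MAR1INT replicate 1 (0.148).

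Btg1 (gene 12226, chromosome 10, 96617001 to 96622811) was measured at 30.2 and 32.9 TPM in BaP, 52.9 and 73.3 in MAR1HI, then 152 and 149.6 in MAR1INT. The MAR1INT libraries lay far above all the others and close to each other. Group means were 31.6 ± 1.91, 63.1 ± 14.4 and 151 ± 1.64 TPM (SD, n = 2 each). It rose 4.78-fold between BaP and MAR1INT (log2 change 2.22, SE 0.25, limma adjusted p = 0.000347). The rise between MAR1HI and MAR1INT was 2.39-fold (1.26, SE 0.25, limma adjusted p = 0.0101), and lost its call without MAR1HI replicate 1 (0.0578). The 2.0-fold difference between BaP and MAR1HI was not called over all 6 libraries (0.96, SE 0.25, limma adjusted p = 0.0903). Ordered by TPM among all gene IDs, Btg1 stood at place 3777 and 3547 in BaP and at 894 and 858 in MAR1INT. The related genes Btg1b and Btg1c were listed at 0 in all 6 libraries.

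Btg2 (gene 12227, chromosome 1, 134074865 to 134079155), also an immediate early and p53-induced gene, was found at 5.97 and 7.73 TPM in BaP, 13.5 and 21.1 in MAR1HI, then 27.5 and 26.4 in MAR1INT. The groups did not overlap, and the duplicates differed most in MAR1HI. Group means were 6.85 ± 1.25, 17.3 ± 5.42 and 26.95 ± 0.776 TPM (SD, n = 2 each). It rose 3.94-fold between BaP and MAR1INT (log2 change 1.84, SE 0.38, limma adjusted p = 0.00587), a call lost without BaP replicate 1 (0.0757) and with no filter on low values (0.0573). The differences between BaP and MAR1HI (1.199, SE 0.38, limma adjusted p = 0.142) and between MAR1HI and MAR1INT (0.64, SE 0.38, limma adjusted p = 0.284) were not called over all 6 libraries. The second of these was called under quantile normalization (1.01, adjusted p = 0.0394) and median-of-ratios scaling (0.92, adjusted p = 0.0442).

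MAR1HI stood partway along each rise. On the log2(TPM + 1) scale it had covered 45.5% of the distance from BaP to MAR1INT for Cdkn1b (29.8% to 62.0% over the 8 choices of 1 library per group). For Btg1 it had covered 43.2% (30.8% to 55.1%), and for Btg2 65.1% (42.8% to 84.4%). These ranges overlap, and they reuse the same libraries.

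The remaining 3 genes did not reach their highest level in MAR1INT. The upstream windows of Cdkn2c and Cdkn1a are shown because both stood lowest there. The Cdkn2c window lies before the more upstream of its 2 RefSeq starts, and so does the Cdkn1a window.

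Cdkn2c, chr4:109666757-109667006, minus strand: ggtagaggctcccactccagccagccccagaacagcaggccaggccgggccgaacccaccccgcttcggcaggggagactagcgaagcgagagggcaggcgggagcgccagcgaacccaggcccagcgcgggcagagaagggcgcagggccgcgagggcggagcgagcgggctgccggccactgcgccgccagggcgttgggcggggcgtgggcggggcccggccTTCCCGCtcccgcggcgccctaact

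Cdkn1a, chr17:29090729-29090978, plus strand: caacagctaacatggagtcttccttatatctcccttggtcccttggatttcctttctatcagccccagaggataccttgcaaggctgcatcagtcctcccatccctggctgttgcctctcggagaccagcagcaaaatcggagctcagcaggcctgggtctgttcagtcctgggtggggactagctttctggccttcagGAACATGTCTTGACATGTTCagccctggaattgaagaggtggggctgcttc

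The capitals in Cdkn2c mark an E2F site, which 3.82% of all windows held. Those in Cdkn1a mark a p53 site of adjacent half-sites, 32 to 51 bases before the start, which 25 of the 32851 windows (0.0761%) held. No motif was found in the window before the other RefSeq start of either gene. The single window of Cdkn2d (chr9:21291210-21291459, minus strand) held only a CCAAT box. It overlaps the RefSeq gene, which extends to 21291421, so the 250 bases before that outer end were not searched in full. No E-box or CHR element was found in any searched window of the 6 genes.

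Cdkn2d (gene 12581, chromosome 9, 21288464 to 21291209), the gene of p19INK4d, was found at 36.3 and 47.8 TPM in BaP, 71.8 and 95.8 in MAR1HI, then 48.9 and 63.8 in MAR1INT. Both MAR1HI libraries were above all others, and the MAR1INT libraries lay just above the BaP range. Group means were 42.1 ± 8.16, 83.8 ± 16.9 and 56.4 ± 10.6 TPM (SD, n = 2 each). No contrast was called over all 6 libraries. The log2 change was 0.98 (SE 0.28, limma adjusted p = 0.116) between BaP and MAR1HI, -0.56 (SE 0.28, 0.217) between MAR1HI and MAR1INT, and 0.41 (SE 0.28, 0.295) between BaP and MAR1INT. The 95% interval of the last, from -0.22 to 1.05, still allows about a doubling. Cdkn2d was also the only one of the 6 not called in the F test over the 3 groups (limma adjusted p = 0.0687).

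Cdkn2c (gene 12580, chromosome 4, 109660876 to 109666756), the gene of p18INK4c and a known E2F target, was measured at 11.5 and 16.8 TPM in BaP, 20.7 and 34.1 in MAR1HI, then 8.31 and 1.46 in MAR1INT. The MAR1INT libraries were both below all others and far apart from each other. Group means were 14.2 ± 3.77, 27.4 ± 9.52 and 4.89 ± 4.84 TPM (SD, n = 2 each). Cdkn2c was 5.61-fold lower in MAR1INT than in MAR1HI (log2 change -2.53, SE 0.60, limma adjusted p = 0.0219). That call was lost without either BaP library (0.0576 and 0.059), without either MAR1HI library (0.115 and 0.237), under quantile normalization (0.063) and under median-of-ratios scaling (0.0511). Against BaP the difference was not called (-1.64, SE 0.60, limma adjusted p = 0.0662), but it was called with FPKM (0.0445) and with a mean TPM of 5 or more (0.0428). The change against BaP was -2.60 without MAR1INT replicate 1 and -0.68 without MAR1INT replicate 2. Against MAR1HI it was -3.49 without MAR1INT replicate 1 and -1.57 without MAR1INT replicate 2. Each of these fits holds 1 MAR1INT library, so the spread between the MAR1INT duplicates does not enter it. The difference between BaP and MAR1HI was not called (0.89, SE 0.60, limma adjusted p = 0.491).

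Cdkn1a (gene 12575, chromosome 17, 29090979 to 29100722), the p53-induced gene of p21, was the lowest of the 6 in BaP and MAR1HI, at 3.29 and 2.38 TPM in BaP and 4.66 and 5.03 in MAR1HI. It was listed at 0 in both MAR1INT libraries. Cdkn1a was called lower in MAR1INT than in BaP (limma adjusted p = 0.00628) and than in MAR1HI (limma adjusted p = 0.00309), with no fold given against a level of 0. Neither call held once the filter on low values was left out (limma adjusted p = 0.0599 against BaP and 0.0839 against MAR1HI). The first was also lost under quantile normalization (0.0794) and the second without MAR1HI replicate 2. The 1.71-fold difference between BaP and MAR1HI was not called (0.62, SE 0.40, limma adjusted p = 0.465). In all, 155 genes were listed at 0 in both MAR1INT libraries and at 2 TPM or more in the other 4, against 3 genes for BaP and 1 for MAR1HI. The part of the larger number of zeros in MAR1INT in the Cdkn1a result was not tested.

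The read coverage of both genes comes from the same reads as TPM, so it describes the values and is not an independent check. Mean coverage per base of Cdkn2c was 22.4 and 32.0 in BaP, 38.4 and 54.3 in MAR1HI, then 9.65 and 2.67 in MAR1INT. For Cdkn1a it was 2.85 and 2.02 in BaP, 3.95 and 3.57 in MAR1HI, then 0 in both MAR1INT libraries, the same order of groups as in TPM. The FPKM per unit of coverage was 3.39 to 3.43 times the lowest ratio of the library for Cdkn1a and 1.38 to 2.04 times for Cdkn2c. It was at the lowest ratio for Cdkn1b, Cdkn2d, Btg1 and Btg2.

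**Figure D2:**
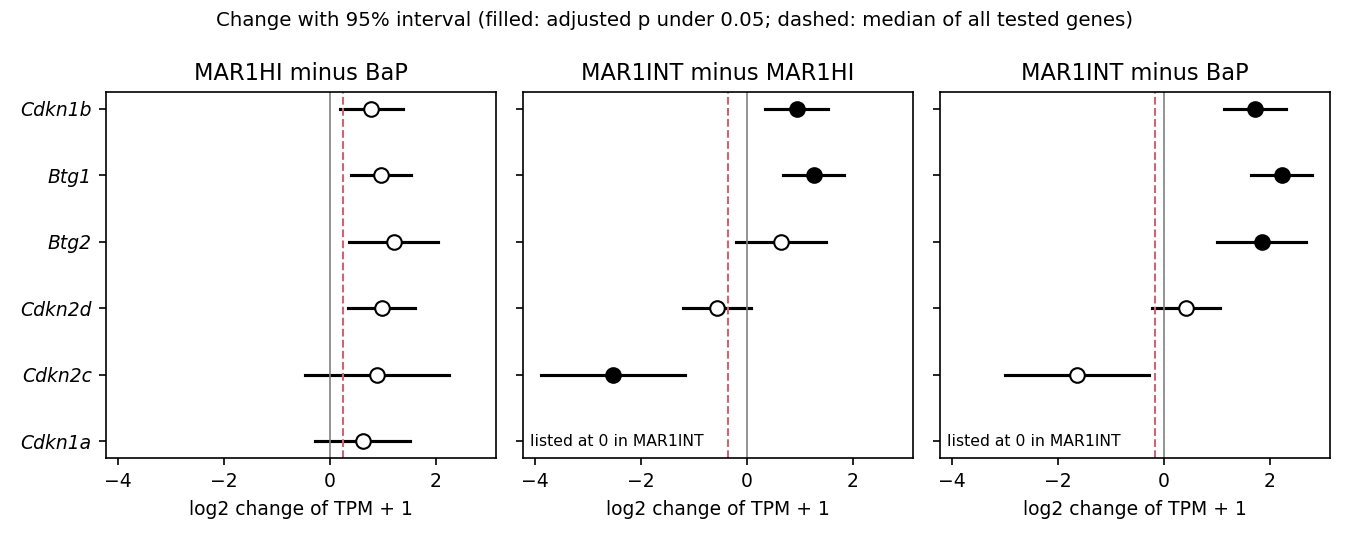
Log2 change of TPM + 1 with its 95% interval (limma, not adjusted for multiple tests) for each gene in the 3 contrasts, filled where the adjusted p was under 0.05, with the median of all tested genes dashed. Cdkn1b, Btg1 and Btg2 are filled in MAR1INT minus BaP, at 1.72, 2.22 and 1.84, and no gene is filled in MAR1HI minus BaP. Cdkn1a is not drawn against MAR1INT, where it was listed at 0.

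Counted by contrast, 3 of the 6 genes rose between BaP and MAR1INT (Cdkn1b, Btg1 and Btg2) and 1 fell (Cdkn1a), where 11.1% of all tested genes rose and 20.4% fell. Between MAR1HI and MAR1INT 2 rose (Cdkn1b and Btg1) and 2 fell (Cdkn1a and Cdkn2c), where 2.29% of all tested genes rose and 14.5% fell. Between BaP and MAR1HI limma called 0 of the 6, and 2.49% of all tested genes (1.83% higher and 0.662% lower). An unadjusted p under 0.05 was found for 4 of the 6, and for 1980 of the 11337 tested genes. Both libraries of MAR1HI nevertheless stood above both of BaP for all 6 genes, as they did for 38.2% of tested genes, while 15.3% lay lower in both. Both MAR1INT libraries were above both of MAR1HI for 3 of the 6 (12.7% of tested genes) and below for 3 (42.2%). They were above both of BaP for 4 (29.7%), Cdkn2d included, and below for 2 (39.1%). With only BaP and MAR1HI in the fit, 3 of the 6 were called higher, as were 718 of the 11337 tested genes. The 3 were Cdkn2d (0.98, limma adjusted p = 0.030), Btg1 (0.96, 0.044) and Btg2 (1.199, 0.0401). With no filter on low values, the calls left among the 3 contrasts were those of Cdkn1b (0.0378) and Btg1 (0.0287) between BaP and MAR1INT. The F test called 5 of the 6, against 26.6% of all tested genes. The 6 genes and the lists below were chosen with earlier results known, so these counts are descriptions and not tests.

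The median tested gene changed by 0.24, -0.36 and -0.16 between BaP and MAR1HI, MAR1HI and MAR1INT, and BaP and MAR1INT. Relative to that median, the change between BaP and MAR1INT was 1.88 for Cdkn1b, 2.38 for Btg1 and 2.0 for Btg2, and 0.58 for Cdkn2d and -1.48 for Cdkn2c. Over FPKM, quantile normalization, median-of-ratios scaling and TPM without histone genes, the relative change lay between 1.51 and 1.88 for Cdkn1b, 1.97 and 2.38 for Btg1, and 1.87 and 2.01 for Btg2. No direction of the 6 genes turned under any alternative. Replication-dependent histone genes took 12.01% to 18.6% of TPM in the BaP and MAR1HI libraries and 7.81% to 8.21% in MAR1INT.

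The TPM ratio of one gene to another within a library is not altered by a scaling with 1 factor per library, though quantile normalization can alter it. Cdkn1b stood at 0.894 and 0.592 times the level of Cdkn2d in BaP, 0.657 and 0.619 times in MAR1HI, then 2.30 and 1.46 times in MAR1INT. The ratio was thus below 1 in all 4 BaP and MAR1HI libraries and above 1 in both MAR1INT libraries. Cdkn1b made up 38.8% and 29.7% of the summed TPM of the 4 CDK inhibitors in BaP, 32.7% and 30.5% in MAR1HI, then 66.3% and 58.7% in MAR1INT. Cdkn2c held 4.90% and 0.925% of it in MAR1INT, against 13.8% to 17.7% in the other 4 libraries.

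**Figure D3:**
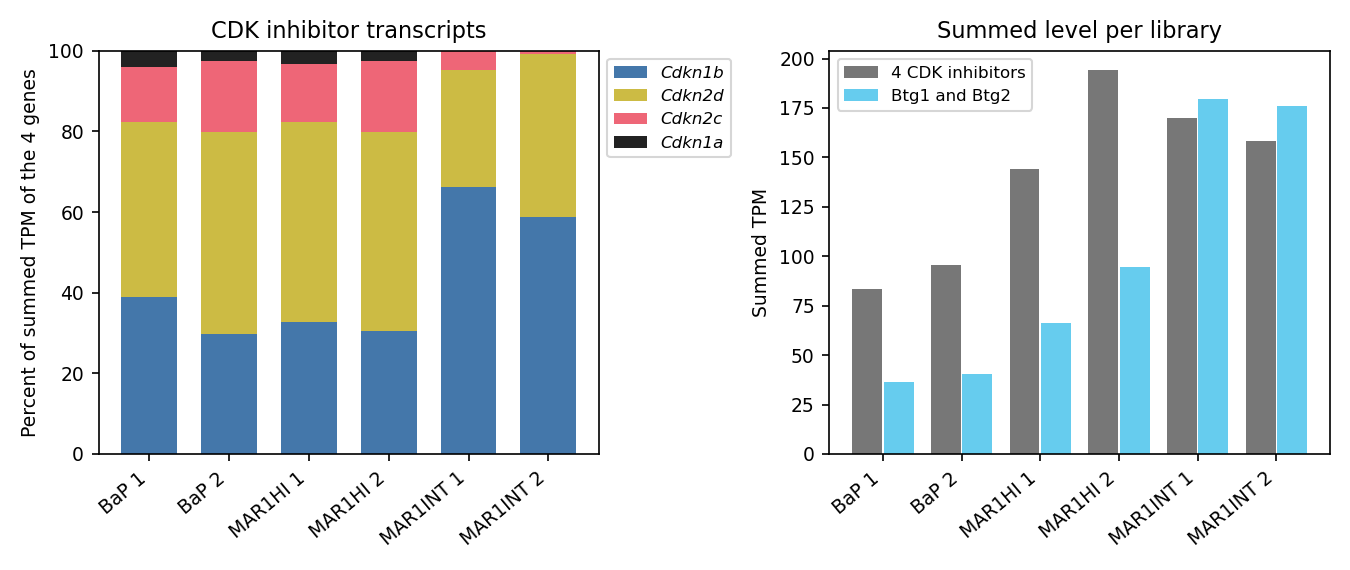
Left, share of each CDK inhibitor in the summed TPM of the 4 genes, in percent, per library. Right, summed TPM of the 4 CDK inhibitors and of Btg1 with Btg2 per library, on a linear axis from 0. Cdkn1b holds 66.3% and 58.7% of the CDK inhibitor sum in MAR1INT, and the BTG sum exceeds the CDK inhibitor sum only in the 2 MAR1INT libraries.

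The summed level of the 4 CDK inhibitors was 83.5 and 95.3 TPM in BaP, 144 and 194 in MAR1HI, then 169.7 and 158 in MAR1INT. The sum of Btg1 and Btg2 was 36.2 and 40.6 TPM in BaP, 66.4 and 94.5 in MAR1HI, then 179 and 176 in MAR1INT. The CDK inhibitor sum overlapped between MAR1HI and MAR1INT, whereas the BTG sum did not. Btg1 provided most of the BTG sum throughout, at 81.0% to 83.5% in BaP, 77.6% to 79.7% in MAR1HI and 84.7% to 85.0% in MAR1INT.

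By TPM, which is a level per transcript length, the order of the genes changed between the groups. In BaP, Cdkn2d was highest, followed by Btg1 and Cdkn1b, whose ranges overlapped, then Cdkn2c, Btg2 and Cdkn1a. MAR1HI kept that order, but the ranges of Cdkn2d and Btg1, of Btg1 and Cdkn1b, and of Cdkn2c and Btg2 overlapped. In MAR1INT the order was Btg1, Cdkn1b, Cdkn2d, Btg2, Cdkn2c and Cdkn1a, with no overlap between neighbours.

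Of the other genes of these families, Cdkn3 was the only one called between BaP and MAR1INT. Cdkn1c (p57) and Cdkn2b (p15) were at or below 0.119 TPM in every library and Cdkn2a, which encodes p16 and ARF, at or below 1.199, so none was tested. Cdkn3, which encodes a phosphatase of CDK2 and is itself expressed in cycling cells, stood at 150.2 and 89.4 TPM in BaP, 166 and 151 in MAR1HI, then 0 and 13.7 in MAR1INT. It fell between BaP and MAR1INT (-4.93, SE 0.95, limma adjusted p = 0.00434), a call lost without BaP replicate 1. Btg4 was listed at 0 throughout, and 0 of the 3 tested BTG/TOB relatives were called between BaP and MAR1INT. None of the 3 had an unadjusted p under 0.05, which 4861 of the 11337 tested genes had. Tob1 stood at 3.11 and 5.15 TPM in BaP and 6.60 and 5.33 in MAR1INT, Tob2 at 8.73 and 11.5 against 11.6 and 9.23, and Btg3 at 4.06 and 13.4 against 8.10 and 14.6.

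Most kinases and cyclins that these inhibitors bind were lower in MAR1INT. Of 9 tested, 7 fell between BaP and MAR1INT and 0 rose, with a median log2 change of -2.52 against -0.16 for all tested genes. Cdk4 stood at 191 and 165 TPM in BaP, 109.7 and 129 in MAR1HI, then 28.4 and 40.1 in MAR1INT (-2.36, SE 0.25, limma adjusted p = 0.000272). Cdk6 stood at 38.1 and 39.7 in BaP, 13.7 and 16.7 in MAR1HI, then 6.79 and 4.45 in MAR1INT (-2.61, SE 0.36, 0.000863). Cdk1 (-2.98, limma adjusted p = 0.000275) and the cyclin Ccne2 (-4.33, 0.000832) fell as well. The D-type cyclins Ccnd2 (1.077, adjusted p = 0.0613) and Ccnd3 (-0.16, 0.636) were not called. Cyclin D3 remained at 100.4 and 83.0 TPM in MAR1INT, next to 93.2 and 111 in BaP.

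Genes of S phase, G2 and mitosis moved with the fall of Cdkn2c and Cdkn1a. Of 26 tested, 25 fell between BaP and MAR1INT and 0 rose (median -2.71), and 25 fell between MAR1HI and MAR1INT (median -2.80). Between BaP and MAR1HI limma called 0, with 3 at an unadjusted p under 0.05, as were 1980 of the 11337 tested genes. Ccnb1, the mitotic cyclin, stood at 97.1 and 128 TPM in BaP, 119 and 168 in MAR1HI, then 4.10 and 7.09 in MAR1INT (-4.13, SE 0.33 against BaP, limma adjusted p = 7.04e-05). Kif11 (-2.78), Mcm5 (-2.85) and Mcm3 (-3.07) fell too, while the E2F factor E2f2 was not called (0.19, adjusted p = 0.76). Without MAR1HI replicate 2, 14 fell between MAR1HI and MAR1INT. The part of these genes in the results for the 6 was not tested.

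Some genes that act in the removal of p27 protein were lower in MAR1INT, where Cdkn1b RNA was highest. Of 7 tested, 3 fell between BaP and MAR1INT and 0 rose, with a median of -0.60. Over all tested genes 20.4% fell and the median was -0.16. Skp2, which recognises p27 for degradation, stood at 5.31 and 6.94 TPM in BaP, 6.96 and 8.27 in MAR1HI, then 0 and 0.214 in MAR1INT (-2.68, SE 0.42, limma adjusted p = 0.00148). Its cofactor Cks1b stood at 229 and 235 in BaP, 184 and 201 in MAR1HI, then 21.1 and 18.1 in MAR1INT (-3.50, SE 0.22, 2.50e-05). Skp1 fell less (-0.72, limma adjusted p = 0.0408), and Cul1 (0.41, 0.204) and Rbx1 (-0.60, 0.123) were not called. Protein levels were not measured.

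The CCR4-NOT genes, whose complex BTG proteins bind, showed no called change. Of 12 tested, limma called 0 between BaP and MAR1INT, with 1 at an unadjusted p under 0.05 and a median of 0.03. Of all 11337 tested genes, 4861 had an unadjusted p under 0.05 in that contrast. Under quantile normalization and under median-of-ratios scaling 2 were called higher, with FPKM 2 were called lower, and 1 was called lower under median-of-ratios scaling and 1 higher without MAR1INT replicate 2. The scaffold Cnot1 stood at 97.6 and 123 TPM in BaP, 126 and 203 in MAR1HI, then 127 and 92.7 in MAR1INT, with overlapping ranges in BaP and MAR1INT.

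FOXO and KLF factors and genes linked to resting blood cells rose alongside Cdkn1b, Btg1 and Btg2. Of 9 tested, 7 rose between BaP and MAR1INT and 0 fell, with a median of 1.27, and without either BaP library 4 rose. Over all tested genes 11.1% rose. Foxo1, a factor known to activate Cdkn1b, stood at 6.69 and 5.51 TPM in BaP, 17.0 and 23.5 in MAR1HI, then 43.1 and 38.5 in MAR1INT (2.56, SE 0.35, limma adjusted p = 0.000767). Txnip, a thioredoxin-binding protein, rose in every contrast, from 351 and 363 TPM in BaP to 874 and 852 in MAR1HI and 2495 and 2377 in MAR1INT (2.77 over both steps, SE 0.17, limma adjusted p = 2.29e-05). Klf10 (2.02, limma adjusted p = 0.00163) and Klf6 (1.54, 0.00242) rose as well. Foxo4 (0.66, adjusted p = 0.238) and Cited2 (-0.21, 0.582) were not called.

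Of 18 tested genes linked to p53, 5 rose and 2 fell between BaP and MAR1INT. Over all tested genes 11.1% rose and 20.4% fell. The list held genes known to be activated by p53, and also Trp53 and Mdm4. The list median was 0.49, against -0.16 for all tested genes. Without either BaP library 2 rose, under quantile normalization 9 and under median-of-ratios scaling 8, and with FPKM 5 fell. Without BaP replicate 2 or either MAR1HI library 1 fell. Sesn1, a stress-induced regulator of growth signalling, stood at 39.6 and 25.5 TPM in BaP, 44.6 and 84.5 in MAR1HI, then 117 and 121 in MAR1INT (1.87, SE 0.34, limma adjusted p = 0.00355). Perp (1.62, limma adjusted p = 0.00797) and the death gene Bbc3 (1.82, 0.0112) rose, and Pidd1 fell (-2.46, 0.00237). Trp53 itself stood at 129 and 129 TPM in BaP and 99.9 and 88.6 in MAR1INT without a call (-0.45, adjusted p = 0.144), and Mdm2 was not called (-0.10, 0.884). Between MAR1HI and MAR1INT, 0 of the 18 rose and 3 fell, beside 2.29% and 14.5% of all tested genes. Between BaP and MAR1HI limma called 0 of the 18, beside 2.49% of all tested genes.

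Pocket proteins hold cell cycle genes in repression. Of 12 tested genes of their complexes 1 rose and 4 fell between BaP and MAR1INT, beside shares of 11.1% and 20.4% over all tested genes, and the list median was -0.50 beside -0.16. With FPKM 7 fell, under quantile normalization 2, and without BaP replicate 1 or 2 the count was 2 and 1. Rbl2, the p130 protein of resting cells, rose from 99.4 and 97.6 TPM in BaP to 401 and 308 in MAR1INT, by way of 171 and 211 in MAR1HI (1.82, SE 0.22, limma adjusted p = 0.00046). Rbl1, the p107 protein of cycling cells, fell from 49.3 and 54.0 to 11.6 and 8.89 TPM (-2.24, SE 0.33, 0.00114). Rbbp4 fell (-0.90, limma adjusted p = 0.0246), and E2f5 was listed at 0 in both MAR1INT libraries after 1.66 and 2.60 TPM in BaP. Rb1 (0.52, adjusted p = 0.261) and E2f4 (-0.29, 0.449) were not called.

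**Figure D4:**
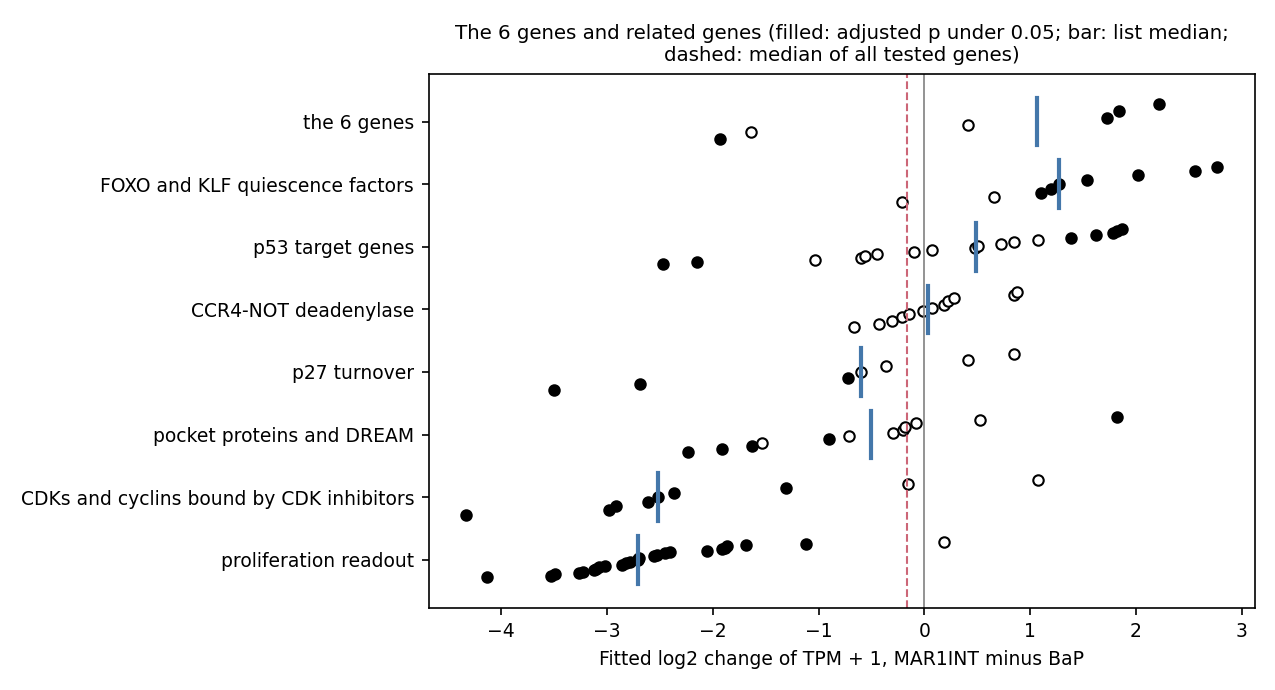
Fitted log2 change of TPM + 1 between BaP and MAR1INT for the 6 genes and the tested genes of 7 related lists, 1 point per gene, filled where the adjusted p was under 0.05, with list medians as bars and the median of all tested genes dashed. The 25 filled points of the replication and mitosis genes lie left of 0 and the 7 filled FOXO and KLF points right of 0. Cdkn1a and E2f5, listed at 0 in MAR1INT, are drawn at values that depend on the pseudocount.

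The genes most like each member over the 6 libraries were found by the root mean square distance between centred log2(TPM + 1) profiles, among 8775 genes with a mean TPM of 5 or more. Cdkn1b was closest to Eif2ak1, a heme-regulated kinase of translation (distance 0.0579), and Ppp1r9b (0.0678). Btg1 was closest to the pseudogene Gpr137b-ps (0.046) and to Dusp5, a phosphatase of ERK kinases (0.0732). Btg2 was closest to Pacs1 (0.0566) and Abtb1 (0.0697), and Cdkn2d to Uimc1 (0.083), a DNA damage response gene, and Ttc5 (0.0878). Cdkn2c was closest to Bard1 (0.204), the partner of BRCA1, and Hmmr (0.247), a spindle protein, and Cdkn1a to Cgas (0.160), a DNA sensor, and E2f7 (0.168), a repressor of cell cycle genes. The likeness was looser for Cdkn2c and Cdkn1a than for the other 4.

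Among the 6 genes themselves the closest were Cdkn1b and Btg1 (0.240), Cdkn1b and Btg2 (0.252) and Btg1 and Btg2 (0.265). Ranked among all those genes by closeness to Btg1, Cdkn1b took place 72 and Btg2 place 107. By closeness to Cdkn1b, Btg1 took place 195 and Btg2 place 231. By closeness to Btg2, Cdkn1b took place 250 and Btg1 place 295. Cdkn1a and Cdkn2c lay 0.645 apart, and each lay at least 1.66 from Cdkn1b, Btg1 and Btg2. Cdkn2d stood between, at 0.642 to 0.867 from the rising genes and 1.06 and 1.16 from Cdkn1a and Cdkn2c. It was near none of them, since most of the ranked genes lay closer. By closeness to Cdkn2d, Btg2 took place 5912, Cdkn1b 6450, Btg1 7196, Cdkn1a 7667 and Cdkn2c 7838.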

How the data were processed

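Gene expression was measured in 6 libraries, 2 per group, with groups and replicate numbers from the sample titles. The submitters' processing notes name Trimmomatic, HISAT2 and StringTie as tools and mm10 as the build; versions and annotation were not given in the sources used here. The authors' deposited tables hold TPM, FPKM and coverage (a signal, the mean depth per base) per gene, per the file headers. The deposited TPM sum to 1000000 per library. Counts were not used, so no counting interval is given. Genes listed in parts were summed (the highest part for coverage), and 24462 of 24532 IDs matched a symbol in a RefSeq gene table (GRCm38.p6).

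The log2(TPM + 1) values entered limma 3.58.1 (R 4.3.3, with trend), 1 term per group, 3 residual degrees of freedom and two-sided tests, which was checked on simulated data. Log2 changes understate those of low genes. An exact permutation test of 2 against 2 cannot go below 0.333. Whether duplicates came from separate animals was not stated, so p-values measure the spread between these libraries. Tables were handled with pandas 2.3.3 and numpy 2.4.6 under Python 3.11.15, and figures drawn with matplotlib 3.10.9.

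The 6 genes and the gene lists were chosen with earlier results of these data known, and lists are described by counts without a set test. Named in full were the 6 genes and their family members; from each further list, at most 4 called genes with the smallest adjusted p between BaP and MAR1INT and the first 2 not called; and for each of the 6 the 2 nearest profiles. Alternatives changed the pseudocount, filter, unit, scaling, block or libraries, and TPM without histone genes was chosen after seeing the data. Protein sequences were not used here.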

Additional observations from a re-analysis of the deposited data

How the results depend on the processing

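All 6 genes kept their direction in each contrast under every alternative that was run. Their side of the threshold was kept in 247 values, a call was lost in 24 and gained in 14. Counts of the 6 genes are given first. Between BaP and MAR1HI, 0 were called higher, 3 with only those groups fitted, and 0 to 3 with 1 library left out; 0 were lower throughout. Between MAR1HI and MAR1INT, 2 were higher, 0 with no filter on low values, 1 with the replicate block, 1 with only those groups and 0 to 2 with a library left out. In the same contrast 2 were lower, 0 with no filter, 1 with a mean TPM of 5 or more (which removes Cdkn1a), 1 under quantile normalization, 1 under median-of-ratios scaling, 1 with only those groups and 0 to 2 with a library left out. Between BaP and MAR1INT, 3 were higher (2 with no filter, 2 to 3 with a library left out) and 1 lower, 0 with no filter, 2 with FPKM, 0 under quantile normalization and 1 to 2 with a library left out. The F test called 5, 0 with no filter and 3 to 6 with a library left out. Except where a value shows it, the cause was not tested.

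Over all genes, between BaP and MAR1HI 207 rose (76 with pseudocount 0.1, 9 with no filter, 718 with only those groups, 1 to 755 with a library left out) and 75 fell (13, 21 and 344 in the same settings, 138 with pseudocount 5, 144 with FPKM, 178 under quantile normalization, 2 to 337 with a library left out). Between MAR1HI and MAR1INT 260 rose (4 with no filter, 786 under quantile normalization, 800 under median-of-ratios scaling, 159 with only those groups, 28 to 362 with a library left out) and 1640 fell (112 with no filter, 948 under quantile normalization, 211 to 2249 with a library left out). Between BaP and MAR1INT 1263 rose (362 with no filter, 2302 under quantile normalization, 478 to 1431 with a library left out) and 2311 fell (732 with no filter, 1103 to 2593 with a library left out). The F test called 3012 (369 with no filter, 1493 to 4074 with a library left out). Of the called genes, 73.4%, 13.7% and 35.3% rose in the 3 contrasts, against 57.3%, 16.5% and 27.8% with FPKM, 56.9%, 45.3% and 55.1% under quantile normalization. Median-of-ratios scaling gave 59.5%, 39.5% and 41.2%. Where a library is left out, the lone sample of its group is assumed to vary like the others.

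With the replicate block, the call of Cdkn1b between MAR1HI and MAR1INT was lost (adjusted p = 0.0623) and no other call of the 6 genes changed. With 2 numbers the pairing could not be established, and the correlation over genes of same-numbered deviations was 0.154 (BaP and MAR1HI), -0.0922 (BaP and MAR1INT) and -0.0592 (MAR1HI and MAR1INT).

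Among other named genes, all not called, the log2 change between BaP and MAR1INT turned direction in some settings. With a library left out it ranged from -0.27 to 1.24 for Btg3, -0.14 to 0.22 for Tob2, -0.24 to 0.21 for Cnot1, -0.11 to 0.26 for Cnot2, -0.60 to 0.40 for Mdm2 and -0.31 to 0.68 for E2f2. With FPKM it was -0.17 for Tob2, -0.16 for Cnot2 and -0.030 for E2f2, under quantile normalization -0.019 for Cnot2, and without histone genes -0.088 for Tob2 and -0.059 for Cnot2.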

Other observations

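The 2 MAR1INT libraries differed in some genes linked to the cell cycle and were close in others. Cdkn2c stood at 8.31 and 1.46 TPM in MAR1INT replicates 1 and 2, whereas Cdkn3 was listed at 0 in replicate 1 and at 13.7 TPM in replicate 2. Btg1 (152 and 149.6 TPM) and Btg2 (27.5 and 26.4) were close in the same libraries.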
